A study of Mus musculus with 18 samples.

Results

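The NR4A nuclear receptors and the EGR zinc finger proteins are immediate early transcription factors, and their 6 genes Nr4a1, Nr4a2, Nr4a3, Egr1, Egr2 and Egr3 were followed across sorted cells of a mouse lymphoma and healthy blood progenitors. Each gene was taken from the single-symbol probe sets of the deposited table, 1 probe set per gene, so the members are 6 of the 22180 genes measured. They were read on 18 Affymetrix arrays, 3 for each of 6 groups. The lymphoma groups were CLP (sorted as common lymphoid progenitor), DN1, DN2, DN3 and DN4 (stages of CD4- and CD8-double-negative thymocytes), and the remaining group was LSK, the lineage-negative SCA1+ KIT+ fraction that holds blood stem cells. Lymphoma cells came from thymus tumours of moribund animals with the genotype "Lck-Cre transgene", which had been irradiated at a sublethal dose and given bone marrow infected with a retrovirus for NPM-ALK, a fusion tyrosine kinase that drives anaplastic large cell lymphoma (ALCL). The Lck promoter drives Cre in early T cells, and the series design names 3 lymphomas. LSK cells came from bone marrow of healthy mice labelled wildtype and 18 months old. Tissue, genotype, irradiation, transplantation and disease therefore differ together, as labelled, between lymphoma and LSK cells and cannot be told apart. An age is given for the LSK mice only, so a difference in age cannot be judged and may add to these. The free-text descriptions speak instead of NIPA KO and wild type animals, with 4 Gy of irradiation for 12 of the 18 arrays, and the titles were followed. This dose is given for LSK replicate 3 but not for the other LSK arrays, so it divides the reference group. It is also given for all DN1, DN2 and DN3 arrays and for CLP except replicate 3, and for no DN4 array. LSK replicate 3 read highest in LSK for every member except Egr2. The part of the described dose in these readings was not tested. Labels do not say which fractions came from 1 animal, so p values measure the spread between these arrays, and the number of arrays limits precision.

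NR4A and EGR genes are nearly silent in resting lymphocytes and are switched on within minutes of antigen receptor signalling, growth factors or stress. In thymocytes EGR proteins act downstream of the pre-TCR and TCR through the RAS and ERK pathway. Nr4a1 (Nur77) is widely used as a reporter of TCR signal strength. NR4A proteins bind DNA without a known hormone, take part in the death of self-reactive thymocytes, and loss of Nr4a1 together with Nr4a3 in mice leads to a myeloid leukaemia. In blood stem cells of mice, Egr1 and the NR4A genes are known for holding cells in quiescence.

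Promoter sequences are shown because cyclic AMP response elements and serum response elements are the known inputs of these genes. They come from the RefSeq starts of build GRCm38.p6, where 4 of the 6 members matched and Egr1 and Egr3 did not. Capitals mark TGACG, the core of the cyclic AMP response element, or its reverse complement CGTCA, and in Egr2 also the CArG box bound by serum response factor.
Nr4a1, chr15:101266596-101266845, plus strand, 250 bases before the start: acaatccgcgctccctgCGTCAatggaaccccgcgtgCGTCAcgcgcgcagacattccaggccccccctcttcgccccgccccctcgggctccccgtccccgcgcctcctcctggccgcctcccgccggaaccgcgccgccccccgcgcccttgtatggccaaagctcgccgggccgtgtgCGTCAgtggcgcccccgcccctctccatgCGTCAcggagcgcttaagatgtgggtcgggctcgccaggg
Nr4a2, chr2:57124004-57124253, minus strand, 250 bases before the start: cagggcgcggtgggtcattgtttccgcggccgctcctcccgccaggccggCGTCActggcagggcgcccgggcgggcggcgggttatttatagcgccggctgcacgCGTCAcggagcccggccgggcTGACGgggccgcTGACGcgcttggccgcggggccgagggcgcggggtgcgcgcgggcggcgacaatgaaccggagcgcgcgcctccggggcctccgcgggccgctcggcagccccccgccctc
Nr4a3, chr4:48045067-48045096, plus strand, a stretch of 30 bases: aggagggTGACGtagcgtcccatgtCGTCA
Egr2, chr10:67537789-67537818, plus strand, a stretch of 30 bases: tcctcagtCCATATATGGgcagcgaCGTCA
Nr4a1, Nr4a2 and Nr4a3 each held 4 TGACG hits on either strand within the 250 bases before the start. Of all 32851 RefSeq promoter windows, 17.8% held at least 1 hit and 0.137% held at least 4, where a full palindromic site counts on both strands. Egr2 has 5 windows, of which 3 held TGACG hits and 2 held none, and 4 held a CArG box. The stretch shown is from the Egr2 window chosen for the most matches, and 1.47% of all windows held a CArG box. These letters are a description of the windows, not evidence of a bound factor.

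The signals are log2 RMA values, in which 1 unit is a factor of 2. As a gauge of background, the 95th percentile of 1105 olfactory receptor genes lay between 5.36 and 5.71 on the arrays. Arrays of 1 group correlated with r of 0.968 to 0.993 across genes. T cell markers were present in the lymphoma (5 of 5 above background in each fraction, array means 10.84 to 11.47, against 5.25 to 5.37 in LSK) and stem and progenitor markers in LSK (7 of 7, 8.77 to 8.83, against 4.60 to 4.86 and 0 of 7 in the lymphoma). Il7r, whose protein defines CLP, was lower on average in CLP (7.99) than in the other fractions (8.51 to 9.75), so CLP is used here as the name of the sort only. The LSK arrays differ in sex-linked RNA: Xist read 3.55, 10.74 and 10.00 on arrays 1, 2 and 3, against 3.81 to 5.03 on the lymphoma arrays. The Y-linked gene Eif2s3y read 8.42, 7.43 and 4.69 on these LSK arrays, against 8.62 to 9.44 on the lymphoma arrays. LSK array 2 thus held both signals. Sex may therefore add to the differences between lymphoma and LSK that cannot be told apart. Each LSK array was left out in turn for every comparison with LSK.

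Nr4a1 (probe set 17315178, chromosome 15) was lower on all 15 lymphoma arrays than on every LSK array. It read 7.96, 8.05 and 7.41 in CLP replicates 1 to 3, 7.27, 7.90 and 7.44 in DN1, 7.64, 7.89 and 7.67 in DN2, 8.18, 8.40 and 8.25 in DN3, 8.28, 8.22 and 8.22 in DN4, and 9.53, 9.31 and 10.17 in LSK. The groups did not overlap, and LSK was the more variable side. Over the mean of the 5 fractions per replicate number, Nr4a1 averaged 7.92 ± 0.15 in lymphoma and 9.67 ± 0.45 in LSK (SD, n = 3 each), a log2 difference of -1.75 (SE 0.20) or 3.36-fold lower (adjusted p = 0.000126, limma). For each member the lymphoma SD is of such averages and the LSK SD of single arrays, so they are not alike. Nr4a1 stayed above the background on every lymphoma array. In bulk RNA of sorted cells, fewer cells with the transcript and less transcript per cell cannot be told apart.

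Nr4a2 (probe set 17385374, chromosome 2), the receptor also called Nurr1, had the most negative measured difference among the members. Across the 15 lymphoma arrays it ranged from 4.66 to 5.29 with a median of 5.04, and it read 6.97, 7.20 and 7.80 in LSK. All 15 lymphoma arrays were below their own background level for this gene, and all 3 LSK arrays were above it. The lymphoma mean was 5.00 ± 0.11 and the LSK mean 7.32 ± 0.43 (SD, n = 3 each), a measured log2 difference of -2.32 (SE 0.19, adjusted p = 1.19e-05, limma). With each lymphoma array raised to its background level, Nr4a2 was at least 3.37-fold lower in lymphoma.

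Nr4a3 (probe set 17413945, chromosome 4), the receptor also called Nor1, was also below background on all 15 lymphoma arrays, at 4.70 to 5.39. It read 5.86, 5.66 and 6.05 in LSK, just above background on all 3 arrays. The means were 4.97 ± 0.02 in lymphoma and 5.86 ± 0.20 in LSK (SD, n = 3 each), a log2 difference of -0.88 (SE 0.12, adjusted p = 0.000305, limma). The lymphoma SD is of averages over fractions, and within single fractions the SD was 0.06 to 0.24. Against the background level the bound was at least 1.22-fold lower.

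Egr1 (probe set 17349514, chromosome 18), the first of the family to respond to ERK signalling, was lower on all 15 lymphoma arrays than in LSK. It read 6.13, 6.49 and 5.92 in CLP replicates 1 to 3, 5.69, 6.20 and 5.82 in DN1, 5.63, 5.87 and 5.73 in DN2, 6.49, 6.49 and 6.33 in DN3, 6.02, 6.11 and 6.22 in DN4, and 7.52, 7.14 and 7.65 in LSK. The lowest LSK array lay above the highest lymphoma value of 6.49, which CLP replicate 2 and DN3 replicates 1 and 2 shared. Egr1 averaged 6.08 ± 0.14 in lymphoma and 7.44 ± 0.27 in LSK (SD, n = 3 each), a log2 difference of -1.36 (SE 0.14) or 2.57-fold lower (adjusted p = 7.03e-05, limma).

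Egr2 (probe set 17233993, chromosome 10) and Egr3 (probe set 17301718, chromosome 14), which act in thymocyte selection and in T cell anergy, fell by less and lay close to background in the lymphoma. Egr2 ranged from 5.48 to 5.88 on the lymphoma arrays, 11 of 15 above their background, and read 6.64, 6 and 6.62 in LSK (log2 difference -0.74, SE 0.16, adjusted p = 0.00747, limma). Egr3 ranged from 5.13 to 6.16 on the lymphoma arrays, 12 of 15 above their background, and read 6.34, 6.09 and 6.91 in LSK (log2 difference -0.68, SE 0.19, adjusted p = 0.0217, limma). The highest Egr3 value of the lymphoma, in CLP replicate 2, overlapped the lowest LSK array. The Egr3 call was lost when lymphoma replicate 1, 2 or 3 was left out (adjusted p = 0.0806, 0.0549 and 0.0587, limma).

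**Figure D1:**
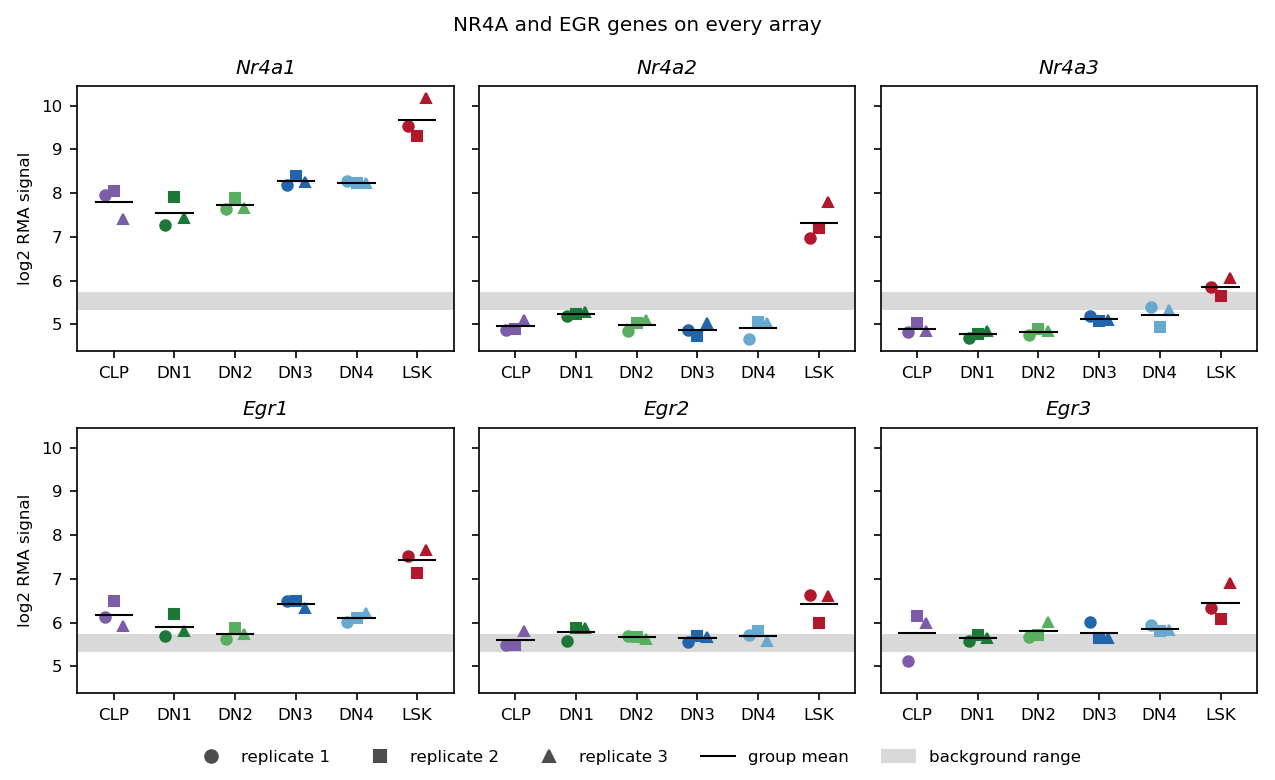
Log2 RMA signal of the 6 genes on each of the 18 arrays, by group, with symbols for the replicate number, lines for group means and a grey band for the range of the background level over arrays (5.36 to 5.71). Nr4a1 and Egr1 stay above the band in most or all lymphoma arrays, Nr4a2 and Nr4a3 drop below its top edge in every lymphoma array, and LSK is the highest group in each panel.

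All 6 members were thus called lower in the lymphoma as a whole, where 29% of all genes were called (15.8% of all genes lower and 13.1% higher). The averaged values of the members did not overlap between the groups in 6 of 6 cases, against 44.7% of all genes. The median difference of all genes was 0.05 on the log2 scale. Each member kept its lower direction in all settings tried.

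The fractions were then compared with LSK 1 at a time, using the same 3 LSK arrays each time, so these comparisons are not independent of each other. DN1, DN2, DN3 and DN4 had all 6 members lower, against 12.3%, 14%, 13.1% and 14.9% of all genes called lower. CLP had 5 of 6 lower, against 11.2% of all genes, and the exception was Egr3 (log2 difference -0.68, 95% interval -1.37 to 0.00, adjusted p = 0.168, limma), whose CLP arrays were the most scattered of its groups (5.13, 6.16 and 6). Nr4a1 differed from LSK by -1.86 (CLP), -2.13 (DN1), -1.94 (DN2), -1.39 (DN3) and -1.43 (DN4) on the log2 scale, each with an adjusted p of at most 0.00114 (limma). Egr1 differed by -1.26, -1.53, -1.69, -1 and -1.32 in the same order. Nr4a2 differed by -2.08 in DN1 to -2.44 in DN3 as measured, with bounds of at least 3.23-fold (CLP) to at least 3.54-fold (DN2) lower. Nr4a3 differed by -0.63 in DN4 to -1.08 in DN1 as measured, with bounds of at least 1.17-fold (CLP) to at least 1.28-fold (DN2) lower. Egr2 differed by -0.64 in DN1 to -0.82 in CLP, and Egr3 by -0.58 in DN4 to -0.80 in DN1.

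The calls of Nr4a1, Nr4a2 and Egr1 held in every fraction when any single array was left out. Egr2 was no longer called in CLP without LSK replicate 1, LSK replicate 3 or CLP replicate 2 (adjusted p = 0.111, 0.101 and 0.0736, limma), nor in DN1 without LSK replicate 1, LSK replicate 3, DN1 replicate 1 or DN1 replicate 2 (0.139, 0.12, 0.121 and 0.0642). Nr4a3 in DN4 reached adjusted p = 0.0504 (limma) without DN4 replicate 2, and Egr3 lost its call in each DN fraction without 1 or more of the arrays (adjusted p up to 0.112, limma).

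**Figure D2:**
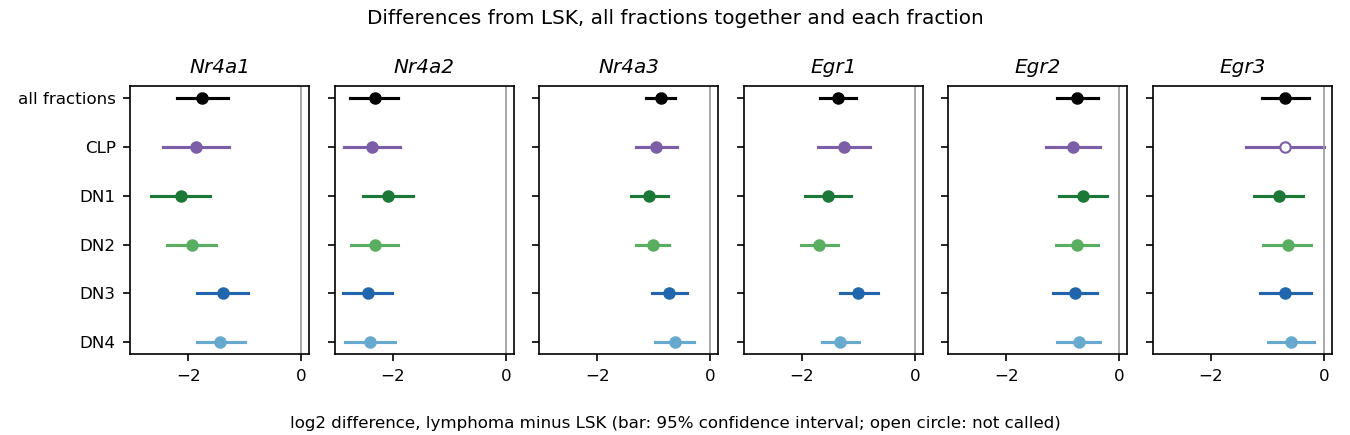
Log2 difference from LSK (x axis) for the mean of all fractions and for each fraction (rows), 1 panel per gene, with 95% confidence intervals from limma; filled circles were called and the open circle was not. All 36 estimates lie below 0, and Egr3 in CLP is the open one, with an interval that reaches 0.00.

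Within the lymphoma, Nr4a1 and Egr1 differed between fractions by test. Nr4a1 was higher in DN3 than in DN1 by 0.74 (SE 0.18, 1.67-fold, adjusted p = 0.0148, limma) and higher in DN4 than in DN1 by 0.70 (SE 0.18, 1.63-fold, adjusted p = 0.0228, limma). Every DN3 and DN4 array (8.18 to 8.40) lay above every DN1 array (7.27 to 7.90). Of all genes, 6.7% were called between DN3 and DN1 and 21.4% had groups that did not overlap, and between DN4 and DN1 the shares were 5.61% and 21.3%. Across the 5 fractions the F test called Nr4a1 (span 0.74, adjusted p = 0.0315, limma), 1 of 6 members against 7.88% of all genes. In order of level the groups ran LSK, DN3, DN4, CLP, DN2 and DN1, and no neighbouring pair of fractions in that order differed by test (adjusted p of 0.287 or more, limma).

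Egr1 was higher in DN3 (6.33 to 6.49) than in DN2 (5.63 to 5.87) by 0.69 (SE 0.16, 1.62-fold, adjusted p = 0.0246, limma), with no overlap between the arrays, where 2.45% of all genes were called and 16.2% had groups that did not overlap. Its difference between DN3 and DN1 was 0.53 (SE 0.16, adjusted p = 0.0583, limma), and its F test across fractions gave adjusted p = 0.0613 (span 0.69, limma). With the replicate number as a block, Egr1 was called in DN3 against DN1 (adjusted p = 0.0283, limma). Its levels ran LSK, DN3, CLP, DN4, DN1 and DN2, again with no called step between neighbouring fractions (adjusted p of 0.549 or more, limma). Of the 60 tests of 6 members in 10 pairs of fractions, 3 were called, which is 2 for Nr4a1 and 1 for Egr1, while 3.16% of all such tests over all genes were called.

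These 3 calls rest on few arrays. Nr4a1 in DN3 against DN1 was lost without DN1 replicate 1, DN1 replicate 3 or DN3 replicate 2 (adjusted p = 0.0863, 0.0633 and 0.0665, limma), and in DN4 against DN1 without DN1 replicate 1 or 3 or any DN4 array (adjusted p = 0.0687 to 0.133, limma). Egr1 in DN3 against DN2 was lost without DN2 replicate 1 or 3 or any DN3 array (adjusted p = 0.0514 to 0.139, limma). Single markers of other cell types also differed between these fractions. Macrophage and monocyte markers averaged 5.84 to 6.03 on the DN1 and DN2 arrays, where Nr4a1 and Egr1 read lowest, and 5.51 to 5.69 on the CLP, DN3 and DN4 arrays. The macrophage gene Mrc1 averaged 7.87 in DN1 and 7.47 in DN2, and 5.08 to 5.33 in the remaining fractions. Of the 9 macrophage and monocyte markers only Mrc1 was called across fractions (adjusted p = 4.09e-08 in the F test, limma). Of 6 B cell and plasma cell markers 2 were called there, both highest in DN1. Jchain averaged 8.60 in DN1 and 4.09 to 4.45 in the remaining fractions (adjusted p = 1.32e-09 in the F test, limma). Ighm averaged 13.07 in DN1 and 10.63 to 11.51 in the remaining fractions (adjusted p = 5.71e-06 in the F test, limma). The part of other cell types in the differences of Nr4a1 and Egr1 was not tested.

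The remaining members passed no test among fractions in the fit of 15 arrays. Nr4a3 in DN4 against DN1 gave adjusted p = 0.0626 (limma), on arrays that were all below background. It was called there with the low-signal filter, without the CLP arrays and without DN4 replicate 2 (adjusted p = 0.0494, 0.0438 and 0.0163, limma), and by the F test without DN4 replicate 2 (adjusted p = 0.0434, limma). Nr4a3 passed that filter through LSK, which is not part of this comparison, so the filtered call supports nothing. Nr4a2 spanned 0.37, Egr2 0.18 and Egr3 0.22 between their highest and lowest fraction (adjusted p = 0.454, 0.901 and 0.964 in the F test, limma). Over the 15 lymphoma arrays, which share fractions and possibly animals, Nr4a1 correlated with Egr1 (Pearson r = 0.777) and Nr4a3 (0.773), whereas Nr4a2 correlated negatively with Nr4a1 (-0.628). As Nr4a2 and Nr4a3 lay below background there, their part of these values is a description of low signals.

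**Figure D3:**
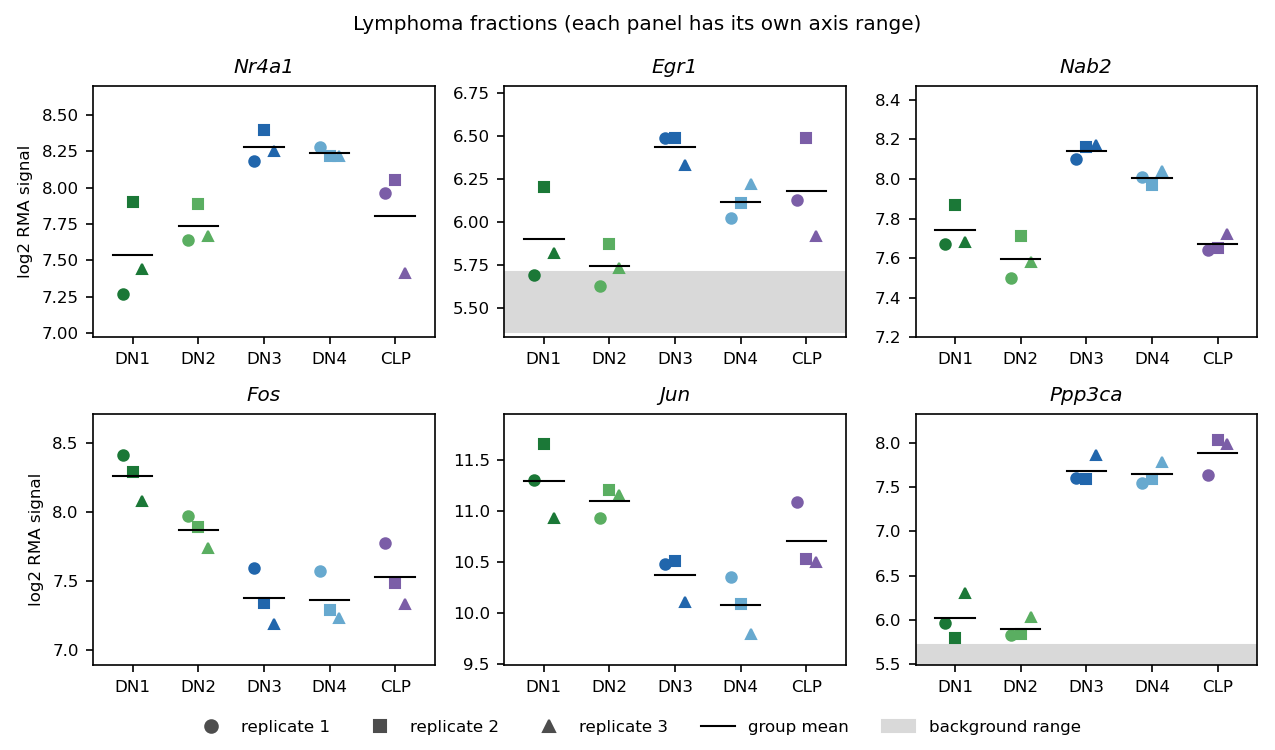
Log2 RMA signal in the 5 lymphoma fractions for Nr4a1, Egr1, the EGR corepressor Nab2, the AP-1 genes Fos and Jun and the calcineurin subunit gene Ppp3ca, with symbols for the replicate number, lines for group means and a grey band for the background level; each panel has its own axis range. Egr1, Nab2 and Ppp3ca were called higher in DN3 than in DN2, while Nr4a1 was not called there (0.54, adjusted p = 0.19, limma). Fos and Jun have their highest means in DN1 and their lowest in DN4.

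Among the binding partners of the members, both NAB corepressors fell. Nab2, a corepressor that EGR proteins induce and that then holds them in check, fell in the lymphoma by 1.5 on the log2 scale (SE 0.10, adjusted p = 3.61e-06, limma): it ranged from 7.50 to 8.17 on the lymphoma arrays and read 9.41, 9.18 and 9.40 in LSK. Among the fractions Nab2 was higher in DN3 than in DN2 by 0.55 (adjusted p = 0.0112, limma) and than in DN1 by 0.41 (adjusted p = 0.0395, limma), the stage at which Egr1 and Nr4a1 also read highest. Nab1, its relative, fell by 0.53 (SE 0.11, adjusted p = 0.00442, limma), with 14 of 15 lymphoma arrays below the lowest LSK array. In single fractions Nab1 was not called against LSK in CLP or DN1 (adjusted p = 0.162 and 0.0566, limma). Of the 3 RXR genes, whose proteins pair with Nr4a1 and Nr4a2, Rxrg was called higher (adjusted p = 0.0443, limma), although all 15 lymphoma arrays and all 3 LSK arrays were below background. Over the 7 relatives and corepressors 1 gene rose and 2 fell, with a median difference of 0.09 against 0.05 for all genes, of which 29% were called (13.1% higher and 15.8% lower).

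Other immediate early genes split, and the AP-1 genes Fos and Jun went the opposite way. Their relative Junb was not called (-0.02, adjusted p = 0.945, limma). Atf3, near background in the lymphoma (fraction means 5.25 to 5.45), was called lower (-0.54 as measured, adjusted p = 0.021, limma). Fos, which pairs with JUN proteins to form AP-1, read 7.77, 7.48 and 7.33 in CLP replicates 1 to 3, 8.41, 8.29 and 8.08 in DN1, 7.97, 7.89 and 7.74 in DN2, 7.59, 7.34 and 7.19 in DN3, 7.57, 7.29 and 7.23 in DN4, and 6.62, 6.05 and 6.47 in LSK. All lymphoma arrays lay above all LSK arrays, a rise of 1.30 (SE 0.16, adjusted p = 0.000182, limma). Jun rose by 1.66 (SE 0.14, adjusted p = 1.59e-05, limma), with lymphoma arrays at 9.79 to 11.65 and LSK arrays at 9.21, 8.79 and 9.15.

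Of 31 other immediate early genes, 5 rose and 12 fell in the lymphoma (17 called, where 29% of all genes were, 13.1% higher and 15.8% lower), with a median difference of -0.13 against 0.05 for all genes. The 5 that rose were Jun, Fosb (1.56), Fos, Btg2, an antiproliferative gene (0.97), and Klf2, a quiescence factor of T cells (0.47). Fosb, Btg2, Klf2, Junb and Atf3 were named after their values were seen. Klf6, a zinc finger factor (-1.18, adjusted p = 4.59e-05, limma), and Plk2, a polo-like kinase (-0.51, adjusted p = 0.00967, limma), were among those that fell. Plk2 did not fall in every fraction, and 6 of 15 lymphoma arrays were below background. Against LSK it was called lower in DN1 (-1.55 as measured) and DN2 (-2.03 as measured) and higher in DN4 (0.74, adjusted p = 0.00153, limma). In CLP (-0.20) and DN3 (0.49) it was not called.

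Between fractions the direction of Fos and Jun was again opposite to that of Nr4a1. Fos was lower in DN3 than in DN1 (-0.89, adjusted p = 0.00112, limma), as was Jun (-0.93, adjusted p = 0.00821, limma), and in DN4 against DN1 they differed by -0.90 and -1.22. Of the 31 genes 10 were lower and 2 higher in DN3 than in DN1, where 2.77% and 3.92% of all genes were called. Plk2 stood on the side of Nr4a1, at least 3.31-fold higher in DN3 than in DN1 (adjusted p = 8e-08, limma), where its 3 DN1 arrays were below background, and Klf6 on the side of Fos (-0.98).

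**Figure D4:**
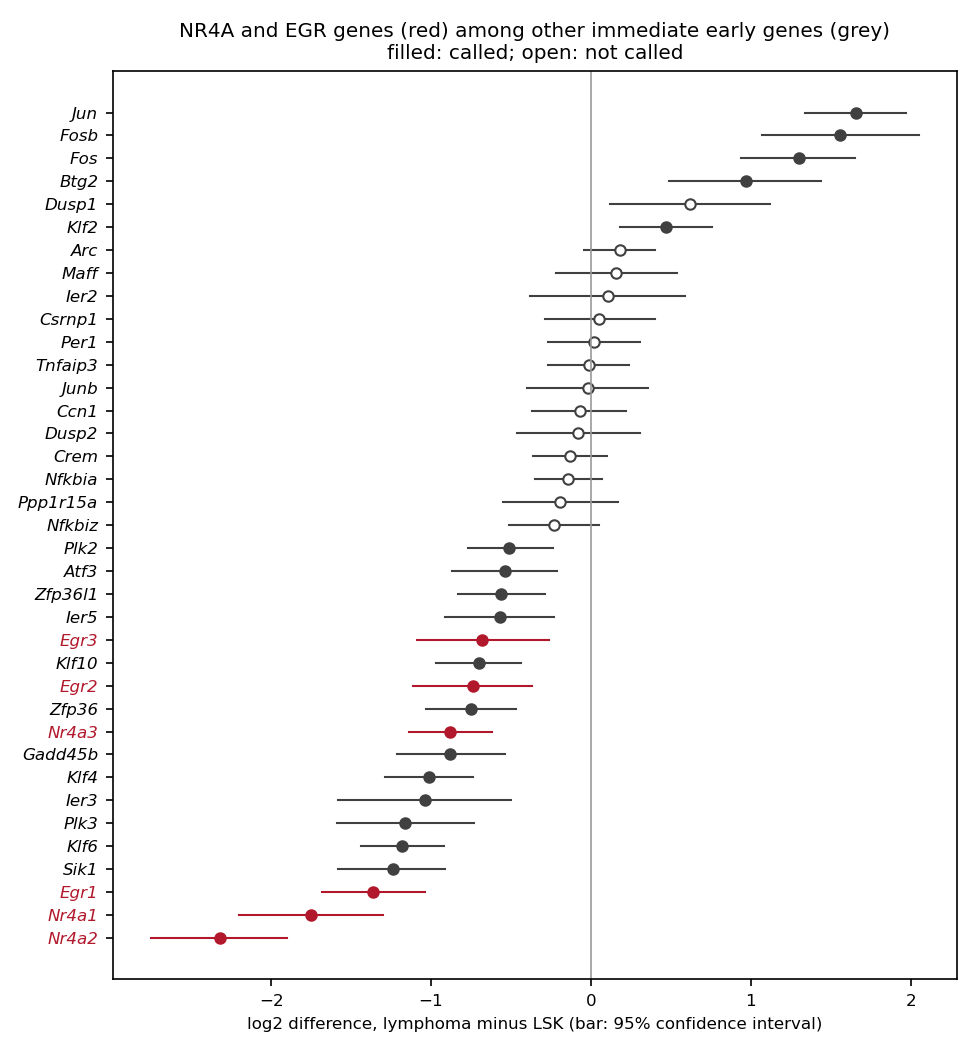
Log2 difference between lymphoma (mean of fractions) and LSK, with 95% confidence intervals, for the 6 members in red and 31 other immediate early genes in grey, ordered by difference; filled circles were called. Nr4a2, Nr4a1 and Egr1 have the most negative measured estimates, at -2.32 (below background in lymphoma), -1.75 and -1.36, and Jun, Fosb and Fos the most positive, at 1.66, 1.56 and 1.30.

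Genes that carry the signal to the members were described as a list of 20, of which 17 were measured. In the lymphoma 2 rose and 5 fell (29% of all genes were called, 13.1% higher and 15.8% lower), with a median difference of -0.17 against 0.05 for all genes. Mef2c, of the MEF2 family whose members act at the Nr4a1 promoter in T cells, fell to background: it ranged from 4.16 to 5.23 on the lymphoma arrays and read 9.09, 8.73 and 8.59 in LSK (measured log2 difference -4.03, SE 0.13, adjusted p = 3.47e-08, limma), at least 9.4-fold lower with all 15 lymphoma arrays below background. Mef2a fell by 1.56 (adjusted p = 1.6e-06, limma). Rasgrp1, which couples the TCR to RAS, rose by 2.81 (SE 0.10, adjusted p = 5.76e-08, limma).

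Ppp3ca, the calcineurin catalytic subunit through which calcium reaches NFAT, fell by 2.14 overall (SE 0.12, adjusted p = 8.29e-07, limma) and differed between the fractions. It read 7.64, 8.03 and 7.99 in CLP replicates 1 to 3, 5.96, 5.79 and 6.30 in DN1, 5.83, 5.84 and 6.03 in DN2, 7.60, 7.59 and 7.86 in DN3, 7.55, 7.59 and 7.79 in DN4, and 9.18, 9.01 and 9.31 in LSK. DN1 and DN2 were thus low and the other fractions high without overlap, and DN3 was above DN1 by 1.67 (SE 0.16, adjusted p = 1.4e-06, limma).

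Feedback genes of the ERK pathway, which the same signals induce, were called in both directions against LSK: of 11 genes 4 rose and 4 fell (median 0.07 against 0.05), where 13.1% of all genes rose and 15.8% fell. Spry2, an inhibitor of RAS signalling, was below background on all 15 lymphoma arrays and at least 4.03-fold lower (adjusted p = 1.02e-07, limma). Spred1, another such inhibitor (-1.91 as measured, adjusted p = 3.32e-06, limma; 8 of 15 lymphoma arrays below background), and the ERK phosphatase Dusp5 (-2.35, adjusted p = 1.41e-07, limma) fell, while the ETS factor Etv5 rose (1.84, adjusted p = 4.82e-06, limma). Within the lymphoma 5 of the 11 were higher and 0 lower in DN3 than in DN1, among them Dusp5 (1.34, adjusted p = 0.00012, limma), Spred1 (at least 1.39-fold, with its 3 DN1 arrays below background, adjusted p = 0.000956, limma) and Etv5 (1.14, adjusted p = 0.000123, limma), where 3.92% of all genes were called higher.

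T cell genes linked to NR4A and EGR activity were called in both directions, 9 higher and 8 lower of 24 (13.1% and 15.8% of all genes), with a median difference of 0.01 against 0.05 for all genes. Cd5, a surface brake whose level tracks TCR signal strength in thymocytes, rose by 2.55 (adjusted p = 9.54e-08, limma) and was higher in DN3 than in DN1 by 1.67 (adjusted p = 8.64e-08, limma). Dgka, a lipid kinase of anergic T cells, rose by 1.96 (adjusted p = 2.74e-06, limma) but was lower in DN3 than in DN1 (-0.87, adjusted p = 0.00676, limma). Cd69, an early activation antigen, and Socs1, a cytokine signalling inhibitor, did not pass against LSK in the mean of the fractions (-0.24 and 0.35, adjusted p = 0.249 and 0.265, limma). Single fractions were called: Cd69 was higher than LSK in DN1 (1.09) and lower in DN3 (-0.94) and DN4 (-0.74). Socs1 was called higher than LSK in DN1 (1.22) and DN2 (0.72). Both genes were lower in DN3 than in DN1 (-2.03 and -1.39, adjusted p = 8.18e-08 and 2.64e-06, limma).

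Heat shock genes, which tissue handling induces together with immediate early genes, were read beside the members. Of 8 measured, 1 rose and 3 fell in the lymphoma, where 13.1% of all genes rose and 15.8% fell. Hspa1a, an inducible HSP70 gene, ranged from 4.15 to 6.34 on the lymphoma arrays and read 9.01, 7.60 and 8.43 in LSK (measured difference -3.58, SE 0.30, adjusted p = 1.42e-05, limma), with 14 of 15 lymphoma arrays below background. Hspa1b (at least 2.52-fold, with all 15 below background) and Hsph1 (-1.71) fell with it while Dnajb1 rose (0.83, adjusted p = 0.000343, limma). The array mean of the list was 7.26 to 7.75 in the fractions and 8.11 to 8.64 in LSK. Markers of other cells also differed: granulocyte markers averaged 4.45 to 5.26 on the lymphoma arrays, with 1 or 2 of 8 above background, and 6.62 to 7.87 in LSK, with 6 of 8 above. B cell and plasma cell markers averaged 5.57 to 5.94 in CLP, DN2, DN3 and DN4, 6.92 to 7.17 in DN1 and 6.38 to 7.52 in LSK, with 1, 3 and 4 of 6 above background. Macrophage and monocyte markers averaged 5.51 to 6.03 on the lymphoma arrays, with 2 to 4 of 9 above background, and 6.33 to 6.39 in LSK, with 5 of 9 above. Dendritic cell markers averaged 5.18 to 5.43 on the lymphoma arrays (1 of 6 above background) and 6.58 to 6.76 in LSK (4 of 6), and erythroid and megakaryocyte markers 4.94 to 5.33 (1 of 4) and 7.10 to 7.43 (3 of 4). Stromal and thymic epithelial markers averaged 5.98 to 6.32 on the lymphoma arrays (4 of 8) and 6.01 to 6.06 in LSK (3 of 8). The part of the heat shock genes and of these cells in the members' differences was not tested.

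The genes whose levels were most like those of a member over the 15 lymphoma arrays were found among 12205 genes whose signal passed the median of its array 3 times or more, by Pearson r and as a description only. Nr4a1 was nearest to Epas1, the hypoxia factor HIF-2α (r = 0.944), Lrig1, an inhibitor of growth factor receptors (0.941), and Pitpnm2 (0.929). All 3 followed its order of DN3 and DN4 above DN1 and DN2 but were lower in LSK: Epas1 averaged 9.11 to 10.11 in the fractions and 6.25 in LSK, so their likeness to Nr4a1 did not extend to LSK. Egr1 was nearest to Ext1, a heparan sulfate synthase (0.884), Btbd2 (0.858) and the protease gene Capn3 (0.815). Nr4a3 was nearest to the sestrin gene Sesn3 (0.914), Dnajb4 (0.894) and Pcmtd1 (0.885), Nr4a2 to the protease inhibitor gene Slpi (0.924), Duoxa1 (0.916) and Plp2 (0.843), Egr2 to Sec14l2 (0.794), Gas2l1 (0.78) and Zfand5 (0.778), and Egr3 to Pgm3 (0.857), Yeats4 (0.855) and Fra10ac1 (0.852). Nr4a2 and Nr4a3 lay below background in the lymphoma, and Egr2 and Egr3 close to it.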

How the data were processed

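The authors' deposited values are log2 signals per probe set. Per the submitters' processing notes they were made with oligo and RMA, with versions and genome build not given in the sources used here. Of 41345 probe sets, 23521 carry 1 gene symbol, 1814 several and 16010 none, and only the first kind was used, with the brightest probe set per gene (mean over 18 arrays), which left 22180 genes. limma 3.58.1 in R 4.3.3 tested them two-sided, with p-values adjusted by Benjamini-Hochberg across genes, and "called" means an adjusted p under 0.05. For the lymphoma as a whole the 5 fraction arrays of a replicate number were averaged, since they may share a tumour, and the 3 means were set against 3 LSK arrays. Each fraction was fitted with LSK alone, and fractions were compared in 1 fit of the 15 lymphoma arrays.

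The members and lists were chosen with earlier results of these data known. Beside the members, up to 4 called genes of each list with the smallest adjusted p are named, and the 3 genes nearest to each member. Nearness over all 18 arrays is not given, since LSK and lymphoma arrays form separate clusters. Alternatives covered a low-signal filter, quantile normalization, averaged probe sets, a trended robust prior, a replicate block, 1 model of all arrays, and leaving out fractions or single arrays. Same-numbered arrays had deviations correlated over 0.1 for all 3 numbers in 4 of the 10 pairs of fractions (DN1 with DN3, DN1 with DN4, DN2 with DN3, DN3 with DN4). There the numbers were taken to pair the samples, and the value with the replicate block is given beside a result whose call it changes. In the other 6 pairs and in every pairing with LSK at least 1 number fell short, and no pairing was assumed in those comparisons. The averages for the lymphoma as a whole did group all fractions by replicate number, including the pairs of fractions that fell short.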

Additional observations from a re-analysis of the deposited data

Results flagged for a closer look

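3 differences between fractions, each equal to a difference between effects against the same LSK arrays, passed the contrast of the fractions themselves. Nr4a1 was higher in DN3 than in DN1 by 0.74 and in DN4 than in DN1 by 0.70 on the log2 scale (adjusted p = 0.0148 and 0.0228, limma, 3 arrays each), and Egr1 was higher in DN3 than in DN2 by 0.69 (adjusted p = 0.0246, limma). In all 3 cases the arrays of the groups did not overlap, which was also true of 21.4%, 21.3% and 16.2% of all genes. The shares of all genes called in these pairs were 6.7%, 5.61% and 2.45%. Over all 10 pairs, 3 of 60 member tests were called, against 3.16% of such tests over all genes. Each of the 3 calls was lost when certain single arrays were left out.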

How the results depend on the processing

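The 36 results of 6 members against LSK (all fractions and each fraction) kept their lower direction in all 462 recomputed values, of which 436 stayed on the same side of the threshold, 25 lost the call and 1 gained it. Losses concerned Egr3, Egr2 and once Nr4a3, and all but Egr3 in DN4 with all 18 arrays in 1 model (adjusted p = 0.0715) came from leaving out 1 replicate; the gain was Egr3 in CLP in that model (adjusted p = 0.0277). Leaving out 1 replicate, 5 to 6 members were called for all fractions, 4 to 5 in CLP, 4 to 6 in DN1, 5 to 6 in DN2 and DN3, and 4 to 6 in DN4. Nr4a2 and Nr4a3 passed the filter on low values through LSK, so the filtered count supports nothing. All genes called in CLP against LSK numbered 3928, 6140 with all 18 arrays in 1 model and 2559 to 4598 without 1 replicate (lowest without LSK replicate 1). Among fractions, 1 member was called by the F test and 2 (Egr1 added) with the filter, with the replicate block or without the CLP arrays, and 0 to 2 without 1 replicate (Nr4a1 lost in 10 cases, adjusted p = 0.058 to 0.0843). Over the pairs 3 calls became 5 with the filter and 5 without the CLP arrays, 4 with the replicate block and 1 to 4 without 1 replicate. The replicate block called Egr1 by the F test (adjusted p = 0.028) and in DN3 against DN1 (adjusted p = 0.0283), and changed no other call of a member. The causes of these changes were not tested. Signals under the background level of their array (5.36 to 5.71) are not told apart from background, which leaves the falls of Nr4a2 and Nr4a3 as bounds. Egr2 and Egr3 had 4 and 3 of 15 lymphoma arrays below that level. With those raised to it, they were at least 1.64-fold and 1.55-fold lower in lymphoma.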
